A study of Mus musculus with 6 samples.

Results

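The genes described here code for the non-fibrillar collagen chains of the basement membrane zone: the 6 chains of type IV collagen (Col4a1 to Col4a6), the type XV chain (Col15a1) and the type XVIII chain (Col18a1). They were taken by symbol from the deposited gene list, which holds all 8 of them among 31053 genes. Their levels were read in 4 cell classes, pericytes, smooth muscle cells, fibroblasts and endothelial cells, of each of 6 single-cell RNA libraries. Cells were assigned to a class by their marker transcripts, and no marker in the gate is a member of this group of genes.

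The mice carried the Tbx18CreER/+ and Rosa26tdT/+ alleles, so that tamoxifen turns on the red protein tdTomato in cells in which the Tbx18 promoter is active, mainly the mural cells that wrap vessels. All animals, sham animals included, carried both alleles and received tamoxifen into the peritoneum for 4 days followed by a washout. The heart libraries hold tdTomato-sorted cells of the ventricles after sham surgery, and of the infarct area and the peri-infarct area after ligation of the left anterior descending (LAD) coronary artery. The brain libraries hold tdTomato-sorted cells of the cortex after sham surgery, and of the infarct core and the peri-infarct area after a photothrombotic (PT) stroke. Each group is 1 library. The labels used here give no age, sex, number of pooled animals or time after injury. Hearts were digested with collagenase and dispase and brains with a commercial adult brain kit, so levels in the 2 organs are set side by side without a direct comparison. With 1 library per group there is no replicate check, and the intervals given below are 95% intervals of counting error only.

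Type IV collagen forms the sheet-like network of every basement membrane. Its chains wind into trimers inside the cell: 2 copies of the Col4a1 chain with 1 of the Col4a2 chain in nearly all tissues, the Col4a3, Col4a4 and Col4a5 chains together in specialised membranes such as that of the kidney filter, and Col4a5 with Col4a6 around smooth muscle. Collagens XV and XVIII, known together as multiplexins, carry sugar side chains and sit at the junction of the basement membrane and the surrounding matrix. Fragments cut from the ends of several of these chains, such as endostatin from collagen XVIII, are known to restrain vessel growth. Mutations of Col4a1 or Col4a2 are known to weaken small vessels of the brain.

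The 6 type IV genes lie in 3 head-to-head pairs in the mm10 genome. Col4a1 (ENSMUSG00000031502, chromosome 8, 11198423 to 11312826, minus strand) and Col4a2 (ENSMUSG00000031503, chromosome 8, 11312805 to 11449287, plus strand) overlap at their starts, which lie 21 bases apart. Col4a3 (ENSMUSG00000079465, chromosome 1, 82586921 to 82722059, plus strand) starts 72 bases from Col4a4 (ENSMUSG00000067158, chromosome 1, 82448423 to 82586849, minus strand). Col4a5 (ENSMUSG00000031274, chromosome X, 141475385 to 141689234, plus strand) starts 1309 bases from Col4a6 (ENSMUSG00000031273, chromosome X, 141165403 to 141474076, minus strand). Col15a1 (ENSMUSG00000028339) spans 47208161 to 47313167 of chromosome 4 on the plus strand. Col18a1 (ENSMUSG00000001435) spans 77052178 to 77166548 of chromosome 10 on the minus strand.

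Start regions are printed for the 4 members that were higher in infarct than in sham pericytes of both organs, from the RefSeq sequences of GRCm38.p6, which matched 7 of the 8 members. For Col4a1 and Col4a2 it is a stretch of 30 bases at the paired starts, 34 to 5 bases before the Col4a2 start and inside the annotated Col4a1 transcript. For Col15a1 and Col18a1 it is the 250 bases before the RefSeq start, the last 18 of which lie in an annotated Col18a1 exon. Capitals mark matches to CCAAT or GGGCGG on either strand.
Shared start of Col4a1 and Col4a2, chr8:11312771-11312800, plus strand: ccCCAATttgttggcgctgccccctcccct
Col15a1, chr4:47207762-47208011, plus strand: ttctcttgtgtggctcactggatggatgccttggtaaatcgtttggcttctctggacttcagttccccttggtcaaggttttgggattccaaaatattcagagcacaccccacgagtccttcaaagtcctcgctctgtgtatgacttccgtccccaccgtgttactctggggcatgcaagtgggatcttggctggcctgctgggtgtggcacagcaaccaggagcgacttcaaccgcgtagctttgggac
Col18a1, chr10:77166531-77166780, minus strand: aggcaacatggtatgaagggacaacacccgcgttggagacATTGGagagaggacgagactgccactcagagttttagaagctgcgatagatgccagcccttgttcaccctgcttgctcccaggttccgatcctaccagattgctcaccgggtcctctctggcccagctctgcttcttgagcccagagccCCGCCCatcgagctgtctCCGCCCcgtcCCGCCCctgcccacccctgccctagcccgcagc
The letters CCAAT occurred on either strand in 33.85% of 32851 windows of the same 250 bases before a RefSeq start, and GGGCGG in 32.74%. The Col18a1 window holds 1 match to CCAAT and 3 to GGGCGG. The Col15a1 window holds no match to these, nor to ACGTG (16.57% of windows), TGANTCA (6.749%) or TATAAA (12.37%). A match is a run of letters and not a measured binding site.

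Levels are given in CPM, the UMIs (molecules counted once each) of a gene among 1000000 UMIs of all cells of a class in a library. UMIs were read at the 3' ends of transcripts and do not grow with transcript length, so levels are compared between libraries and classes and not between genes. The deposited matrices held 2368 to 17951 barcodes per library, of which 2026 to 11448 were kept, with a median of 1274 UMIs per kept cell in heart sham and 2890 to 25908 in the other 5. Heart sham had the fewest UMIs per cell and, by the lower of 2 estimates, the most free RNA: fibroblast markers in its endothelial cells stood at 34.3% of their level in all cells pooled, against 0.462% to 5.53% by the lower estimate in the other libraries. The reverse estimate, endothelial markers in fibroblasts, was 49.5% in heart sham and 72.6% in brain infarct. It held no class of leukocytes, so its 146 mesothelial cells stand in as background, although these cells may make type IV collagen themselves. Brain sham held 7 Xist UMIs (0.611 CPM) and 107.5 CPM of the Y-linked Ddx3y, whereas brain infarct and peri-infarct held 328 and 450 CPM of Xist beside 11.5 and 28.3 CPM of Ddx3y. The heart libraries held 944 to 1034 CPM of Xist and at most 0.027 CPM of Ddx3y. The sex makeup of brain sham thus differed from the other brain libraries, and that of the brain libraries from the heart ones. Col4a5 and Col4a6 are X-linked. Up to 204 barcodes (7.88% of the smaller library) were shared by 2 libraries, heart and brain peri-infarct. The gate left up to 25.3% of kept cells without a class, most in heart sham.

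The pericyte class was checked on genes that the gate did not use. Summed over 9 such pericyte genes, brain pericytes held 9223 CPM in the sham, 8247 in the infarct and 9074 in the peri-infarct library, while heart pericytes held 2451, 3650 and 4037. In heart sham pericytes the summed check lists of smooth muscle (3986 CPM over 9 genes) and endothelial cells (2676 over 10) were higher than the pericyte list, and that of fibroblasts was at 2093 CPM over 10. The smooth muscle list was above the pericyte list in pericytes of heart infarct (5298 CPM) and peri-infarct (4886) as well, and in brain sham pericytes it summed to 5774 CPM. Of the 453 heart sham pericytes, 57.2% lay in cluster 2, which carries the smooth muscle name, and 19.9% in endothelial cluster 5, whereas 82.8% of the 1047 infarct and 80.2% of the 565 peri-infarct pericytes lay in pericyte cluster 13. What these differences contribute to the heart comparisons with sham was not tested. Brain infarct had no smooth muscle class of 50 cells.

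Transcripts of Col4a1 and Col4a2, the chains of the common type IV network, were about 4-fold higher in pericytes of the injured heart than in heart sham. In brain pericytes they were over 2-fold higher in the infarct library alone. Every class of the heart held more of both in the infarct library than in sham, and brain fibroblasts held most in the infarct and least in the peri-infarct library.

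The Col4a1 level of heart pericytes was 600.9 CPM in the sham, 2457 in the infarct and 2322 in the peri-infarct library. Infarct stood 4.09-fold above sham (3.67 to 4.58) and peri-infarct 3.86-fold (3.46 to 4.33), and the 2 injured libraries were within 1.06-fold of each other. The Col4a2 level of the same cells was 354, 1416 and 1227 CPM in that order, 4.00-fold (3.47 to 4.64) and 3.47-fold (3.00 to 4.02) above sham. Subtracting the estimated free RNA gave log2 ratios of 1.87 for Col4a1 and 1.74 for Col4a2 in infarct against sham, beside 2.03 and 1.997 without it. In brain pericytes Col4a1 was at 509 CPM in the sham, 1294 in the infarct and 472 in the peri-infarct library. The infarct library was 2.54-fold (2.38 to 2.71) above sham, and peri-infarct was level with sham at 0.928-fold (0.862 to 0.999). Brain pericyte Col4a2 read 293, 700.5 and 253 CPM, so that infarct was 2.39-fold (2.19 to 2.61) above sham and 2.77-fold (2.49 to 3.07) above peri-infarct. Counting only brain cells with a Y-linked UMI and no Xist UMI, the infarct log2 ratios against sham were 1.49 for Col4a1 and 1.34 for Col4a2, while that of Col4a1 in peri-infarct pericytes turned from -0.11 to 0.21.

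**Figure D1:**
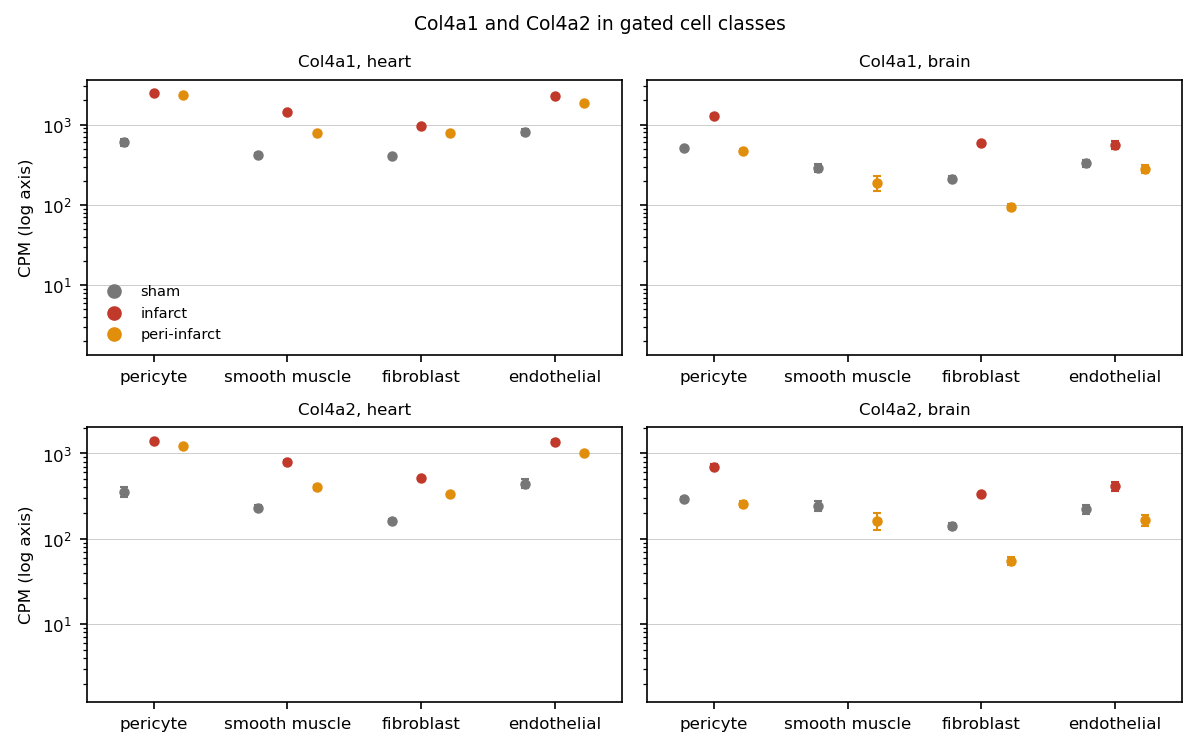
Levels of Col4a1 and Col4a2 in CPM (log axis) by cell class and library, 1 point per class and library, with exact Poisson 95% intervals of the count. Heart pericytes lie near 2457 and 2322 CPM of Col4a1 in the injured libraries against 600.9 in sham, and in brain the pericyte point of the infarct library (1294) is above the other 2.

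Smooth muscle cells, fibroblasts and endothelial cells of the heart also held more in infarct, each by at least 2-fold. Smooth muscle Col4a1 was 417 CPM in the sham, 1418 in the infarct and 775 in the peri-infarct library, 3.40-fold and 1.86-fold above sham. Fibroblast Col4a1 was 401, 954 and 781 CPM, 2.38-fold (2.30 to 2.47) above sham in infarct and just under 2-fold in peri-infarct. Endothelial Col4a1 was 809, 2269 and 1873 CPM, 2.80-fold (2.54 to 3.10) and 2.32-fold (2.11 to 2.55) above sham. Of the sham fibroblasts 62.6% lay in cluster 0, whose leading genes Myh11 and Rgs5 belong to mural cells, and within cluster 3, which holds 602 sham and 535 peri-infarct fibroblasts, the Col4a1 level was lower in peri-infarct (113 against 188 CPM). With free RNA subtracted the endothelial log2 ratio in peri-infarct was 0.92, below a 2-fold difference. Col4a2 was higher than sham by 3.49-fold, 3.21-fold and 3.11-fold in smooth muscle, fibroblasts and endothelial cells of the infarct. Leukocytes, which are not known for type IV collagen, held 39.3 CPM of Col4a1 in heart infarct and 51.3 in peri-infarct, and mesothelial cells 205 in heart sham.

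In the brain the other classes did not share a pattern. Fibroblast Col4a1 was 212 CPM in the sham, 593 in the infarct and 93.6 in the peri-infarct library, 2.80-fold (2.60 to 3.01) above sham in infarct and 2.26-fold (2.02 to 2.54) below sham in peri-infarct. Scaling with TMM factors shifted log2 ratios of the brain fibroblast comparisons by 0.70, 0.24 and 0.41 (infarct against sham, peri-infarct against sham, infarct against peri-infarct), which took the peri-infarct Col4a1 ratio from -1.17 to -0.93 and the infarct ratio from 1.48 to 2.18. The infarct difference was under 2-fold in 3 of 18 alternatives, down to a log2 ratio of 0.81 when each cell was thinned to 1000 UMIs before summing. Endothelial Col4a1 was 328 CPM in the sham, 559 in the infarct and 277 in the peri-infarct library, and smooth muscle Col4a1 289 in sham and 185 in peri-infarct. None of these differences from sham reached 2-fold. Brain leukocytes held at most 22.1 CPM.

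The class with the highest Col4a1 level differed between heart sham and the injured heart libraries, but not between the brain libraries. The heart sham order rests on pericytes that lay mostly in clusters named smooth muscle or endothelial. That library also had the most free RNA by the lower estimate. In heart sham, endothelial cells held the highest Col4a1 level, 1.35-fold (1.17 to 1.56) that of pericytes, followed by smooth muscle and fibroblasts, whose levels were not apart (1.04-fold, 0.977 to 1.11). In heart infarct pericytes came first, 1.08-fold (1.04 to 1.13) above endothelial cells, then smooth muscle and fibroblasts. In heart peri-infarct pericytes were 1.24-fold (1.21 to 1.27) above endothelial cells, and smooth muscle and fibroblasts were again not apart (0.993-fold, 0.943 to 1.04). Pericytes came first in all 3 brain libraries, 1.55-fold (1.39 to 1.73) above endothelial cells in the sham, 2.18-fold (2.07 to 2.29) above fibroblasts in the infarct and 1.70-fold above endothelial cells in the peri-infarct library. Endothelial and smooth muscle levels were not apart in brain sham (smooth muscle at 0.880-fold, 0.749 to 1.03), nor fibroblast and endothelial levels in brain infarct (1.06-fold, 0.957 to 1.18). By number of molecules the order was another: fibroblasts gave 42.9%, 64.5% and 48.1% of all Col4a1 UMIs in heart sham, infarct and peri-infarct, and 87.7% in brain infarct. Pericytes gave 55.1% in brain sham and 49.6% in brain peri-infarct. Such shares follow the number of sorted and gated cells of a class and their depth, and are not shares of the tissue. Brain infarct held 1262 fibroblasts with a median of 34001 UMIs and 388 pericytes with a median of 2925.5.

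Col4a2 kept close to Col4a1. Over 23 class-by-library sums there were 0.405 to 0.872 Col4a2 UMIs for each Col4a1 UMI, with a median of 0.572. The lowest ratios were those of heart fibroblasts in sham (0.405, 0.379 to 0.432) and peri-infarct (0.428, 0.419 to 0.436), whereas infarct fibroblasts stood at 0.545 (0.538 to 0.552). Pericytes lay between 0.528 and 0.589 in all 6 libraries, and only the 2 injured heart libraries had intervals that did not overlap (0.560 to 0.593 in infarct, 0.508 to 0.550 in peri-infarct). Brain smooth muscle had the highest ratios, 0.848 in sham and 0.872 in peri-infarct. The counts are of the 3' ends of transcripts, so this ratio is not a ratio of chains.

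Among pericytes of the injured heart most cells held the transcript. After thinning each cell to 1000 UMIs, a Col4a1 UMI was found in 42.5% (36.6 to 48.5) of 280 heart sham pericytes, 82.5% (80.0 to 84.7) of 1045 infarct pericytes and 77.3% (73.6 to 80.7) of 559 peri-infarct pericytes, leaving out 173, 2 and 6 shallower cells. Unthinned shares were 50.8%, 96.0% and 95.2%. Background shares at the same depth were 23.6% in heart sham mesothelial cells and 1.99% and 2.54% in leukocytes of the injured heart. In brain pericytes the thinned shares were 36.6% (34.1 to 39.2) in the sham, 53.6% (48.3 to 58.8) in the infarct and 31.2% (28.3 to 34.2) in the peri-infarct library, and the unthinned ones 67.4%, 78.9% and 51.8%. No brain leukocyte of 38 in sham or 122 in infarct held a UMI at this depth, which allows shares of up to 7.89% and 2.46%. The tenth of heart infarct pericytes with most Col4a1 held 28.6% of its thinned UMIs, against 41.6% for heart sham, 41.5% for the brain infarct and 52.9% for the brain peri-infarct library. A cell with a Col4a1 UMI held a Col4a2 UMI in 71.0% of cases in heart infarct pericytes and a cell without one in 50.3%.

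Col4a3 and Col4a4, which with Col4a5 form the trimer of the kidney filter, were transcripts of pericytes in the brain. In the heart, fibroblasts gave 59.1% to 88.2% of their UMIs, shares that follow the number and depth of gated cells. By level, pericytes of heart infarct were close to fibroblasts for both. Neither gene passed 2-fold in brain pericytes. Brain pericytes held 39.8 CPM of Col4a3 in the sham, 51.0 in the infarct and 42.8 in the peri-infarct library, and gave 84.2%, 89.2% and 88.5% of all Col4a3 UMIs of their libraries. Their Col4a4 level was 52.6, 57.9 and 52.7 CPM, with a ratio to sham of 1.10 (0.836 to 1.44) in infarct and an interval of 0.797 to 1.26 in peri-infarct. No other brain class held over 10.7 CPM of Col4a3 or 3.52 CPM of Col4a4, and leukocytes held no UMI of either. The infarct library, where these cells held over 2-fold more Col4a1 and Col4a2 than sham, was within 1.28-fold of it for both, and the difference between the genes was not tested.

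In the heart, fibroblasts held 12.8, 6.16 and 14.02 CPM of Col4a3 and 56.7, 23.4 and 63.7 CPM of Col4a4 in sham, infarct and peri-infarct. Both were lower in the infarct library than in peri-infarct, Col4a3 by 2.28-fold and Col4a4 by 2.72-fold (2.55 to 2.90). The Col4a3 difference was under 2-fold with cells thinned before summing (log2 -0.63, beside -1.07) and under 5 other alternatives, and that of Col4a4 from sham (-1.24) with thinned cells too (-0.96). Heart pericytes held 9.08, 6.13 and 6.17 CPM of Col4a3 and 32.7, 20.4 and 26.9 of Col4a4. Smooth muscle held 22.3, 1.27 (3 UMIs) and 5.01 (10 UMIs) CPM of Col4a4, and endothelial cells 28.1, 4.64 (7 UMIs) and 2.57 (23 UMIs). Mesothelial cells of heart sham held 116 CPM of Col4a4, more than fibroblasts or any other class there, so they are no background for this gene. With free RNA subtracted the Col4a4 log2 ratio of infarct to sham was -1.38 in fibroblasts, -2.74 in smooth muscle and -1.97 in endothelial cells, beside -1.24, -3.36 and -2.37.

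**Figure D2:**
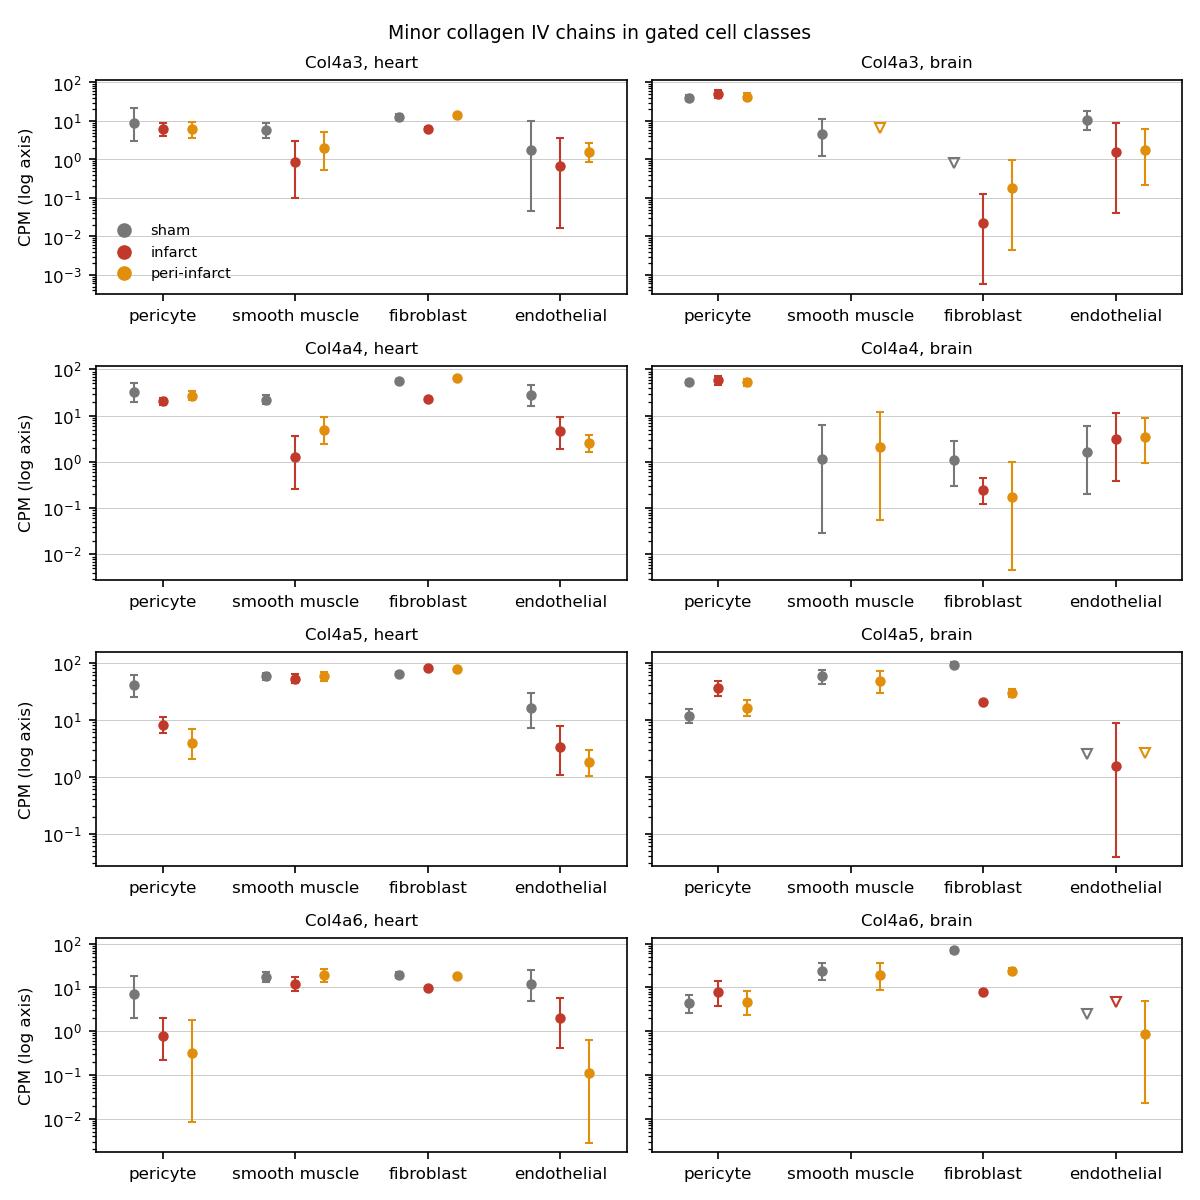
Levels of Col4a3 to Col4a6 in CPM (log axis) by cell class and library, with exact Poisson 95% intervals; open triangles mark the limit that 3 counts allow where no UMI was found. Col4a3 and Col4a4 are highest in pericytes among brain classes, and Col4a5 and Col4a6 in fibroblasts and smooth muscle. The exception is Col4a5 in brain infarct, where the pericyte point is above that of fibroblasts as a whole class.

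Col4a5 and Col4a6, the X-linked pair known from smooth muscle basement membranes, were held by smooth muscle and fibroblasts. They were lower in pericytes, except Col4a5 in brain infarct, where fibroblast clusters differed. Smooth muscle levels were within 2-fold of sham, and brain fibroblasts of the injured cortex held several-fold less than sham. Heart smooth muscle held 57.8 CPM of Col4a5 in the sham, 52.8 in the infarct and 58.6 in the peri-infarct library, ratios to sham of 0.913 (0.724 to 1.15) and 1.01 (0.799 to 1.28). Its Col4a6 level was 17.6, 12.2 and 19.0 CPM. Brain smooth muscle held 57.6 CPM of Col4a5 in sham and 47.4 in peri-infarct, and 23.7 and 19.4 CPM of Col4a6. With cells thinned before summing the log2 ratios of brain smooth muscle were -1.81 for Col4a5 and -4.74 for Col4a6, beside -0.28 and -0.28. In heart fibroblasts Col4a5 was at 64.3, 81.5 and 77.3 CPM and Col4a6 at 19.5, 9.54 and 18.0. By the ratio of (CPM + 1) none of these was apart from sham by 2-fold, the nearest being Col4a6 in heart infarct fibroblasts (log2 -0.96), which passed 2-fold under 5 of 17 alternatives (to -1.13).

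Brain fibroblasts held 92.8 CPM of Col4a5 in the sham, 20.1 in the infarct and 29.7 in the peri-infarct library. Infarct was 4.61-fold (4.05 to 5.23) and peri-infarct 3.12-fold (2.59 to 3.78) below sham. Col4a6 went from 70.3 CPM in sham to 8.01 (infarct) and 23.8 (peri-infarct), 8.78-fold (7.44 to 10.3) and 2.95-fold (2.38 to 3.66) lower. In cells with a Y-linked UMI and no Xist UMI, the infarct log2 ratios were -0.97 for Col4a5 and -1.73 for Col4a6, beside -2.15 and -2.98 over all cells.

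Col4a5 was lower in pericytes than in fibroblasts of each library but brain infarct, and its pericyte levels rest on few UMIs. In heart pericytes it stood at 39.9 CPM (22 UMIs) in the sham, 8.11 (41 UMIs) in the infarct and 3.90 (12 UMIs) in the peri-infarct library. The injured libraries were 4.92-fold (2.79 to 8.46) and 10.3-fold (4.86 to 22.7) lower, but the sham level lay below that of mesothelial cells (51.2 CPM) and cannot be told apart from free RNA of the fibroblasts and smooth muscle cells that hold the transcript. With the estimated free RNA subtracted the log2 ratios were -2.20 and -3.23, beside -2.17 and -3.06. In brain pericytes it was 11.8 CPM (49 UMIs) in the sham, 35.5 (46 UMIs) in the infarct and 16.3 (38 UMIs) in the peri-infarct library, 3.01-fold (1.97 to 4.59) above sham in infarct. In cells with a Y-linked UMI and no Xist UMI that log2 ratio was 1.37, beside 1.51. At 35.5 CPM, brain infarct pericytes held a higher Col4a5 level than the fibroblasts of that library taken as a class. Fibroblast clusters differed there: cluster 16, with 21.2% of these fibroblasts, held 76.6 CPM, more than the pericytes. Clusters 10, 18 and 19 held 2.35, 7.46 and 3.60. Pericyte Col4a6 was under 10 CPM in every library.

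Col15a1, whose chain bridges basement membrane and fibrillar matrix, was a fibroblast transcript in both organs and was next to absent from brain pericytes without injury. It was higher in heart pericytes, and appeared in brain pericytes, in the infarct libraries, while brain fibroblasts of the injured cortex held far less than sham.

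Heart fibroblasts held 402 CPM of Col15a1 in the sham, 661 in the infarct and 910.3 in the peri-infarct library. Peri-infarct was 2.27-fold (2.19 to 2.35) above sham and infarct 1.65-fold (1.59 to 1.71). Fibroblasts were the highest class in each heart library, 2.43-fold (1.97 to 3.03) above pericytes in the sham, 1.65-fold (1.57 to 1.72) in the infarct and 3.35-fold (3.13 to 3.59) in the peri-infarct library. Heart pericytes held 165 CPM (91 UMIs) in the sham, 401 in the infarct and 272 in the peri-infarct library. Infarct was 2.43-fold (1.97 to 3.03) and peri-infarct 1.65-fold (1.32 to 2.07) above sham. Those sham pericytes stood against 75.0 CPM in mesothelial cells, and with free RNA subtracted the pericyte log2 ratios were 1.97 in infarct and 1.38 in peri-infarct, beside 1.28 and 0.71. Endothelial Col15a1 was 128, 279.8 and 177 CPM. Its 2.18-fold (1.70 to 2.83) infarct difference was a log2 ratio of 0.50 when classes were taken from named clusters and 0.45 with thinned cells. Smooth muscle held 128, 109.8 and 48.0 CPM, 2.67-fold (2.13 to 3.36) lower in peri-infarct than in sham, which was a log2 ratio of -0.38 with free RNA subtracted, beside -1.40.

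Brain pericytes held 4 Col15a1 UMIs in sham (0.965 CPM), 60 in infarct (46.3 CPM) and 16 in peri-infarct (6.85 CPM). Infarct was 48.0-fold (17.8 to 182) above sham and 6.76-fold (3.85 to 12.6) above peri-infarct. The 60 UMIs came from 25 of 388 infarct pericytes (6.44%, 4.21 to 9.36), against 4 of 1397 in sham (0.286%, 0.0781 to 0.732), while 3 of 122 brain infarct leukocytes (2.46%) and 5 of 38 brain sham leukocytes (13.2%) held a UMI. With cells thinned to 1000 UMIs the infarct share was 1.92% (0.777 to 3.92), a share that rests on 7 cells and whose interval covers the 0.820% of leukocytes. Brain infarct leukocytes held 1.27 CPM and endothelial cells 1 UMI. In cells with a Y-linked UMI and no Xist UMI the infarct log2 ratio was 3.98 against sham and 0.96 against peri-infarct, beside 4.59 and 2.59. Fibroblast check genes summed to 477 CPM in these infarct pericytes and 263 in sham, against 14482 in infarct fibroblasts, and the part of such transcripts in the Col15a1 level was not tested. As a class, infarct fibroblasts held 27.3 CPM of Col15a1 against 46.3 in the pericytes, but fibroblast clusters of that library differed. Cluster 16, with 21.2% of these fibroblasts, held 91.9 CPM, and clusters 10, 18 and 19 held 0, 8.60 and 11.1.

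Brain fibroblast Col15a1 was 251 CPM in the sham, 27.3 in the infarct and 50.5 in the peri-infarct library. The injured libraries were 9.21-fold (8.44 to 10.1) and 4.97-fold (4.34 to 5.70) below sham. Fibroblasts still gave 98.0%, 88.9% and 91.3% of the Col15a1 UMIs of their libraries, and brain smooth muscle held none.

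**Figure D3:**
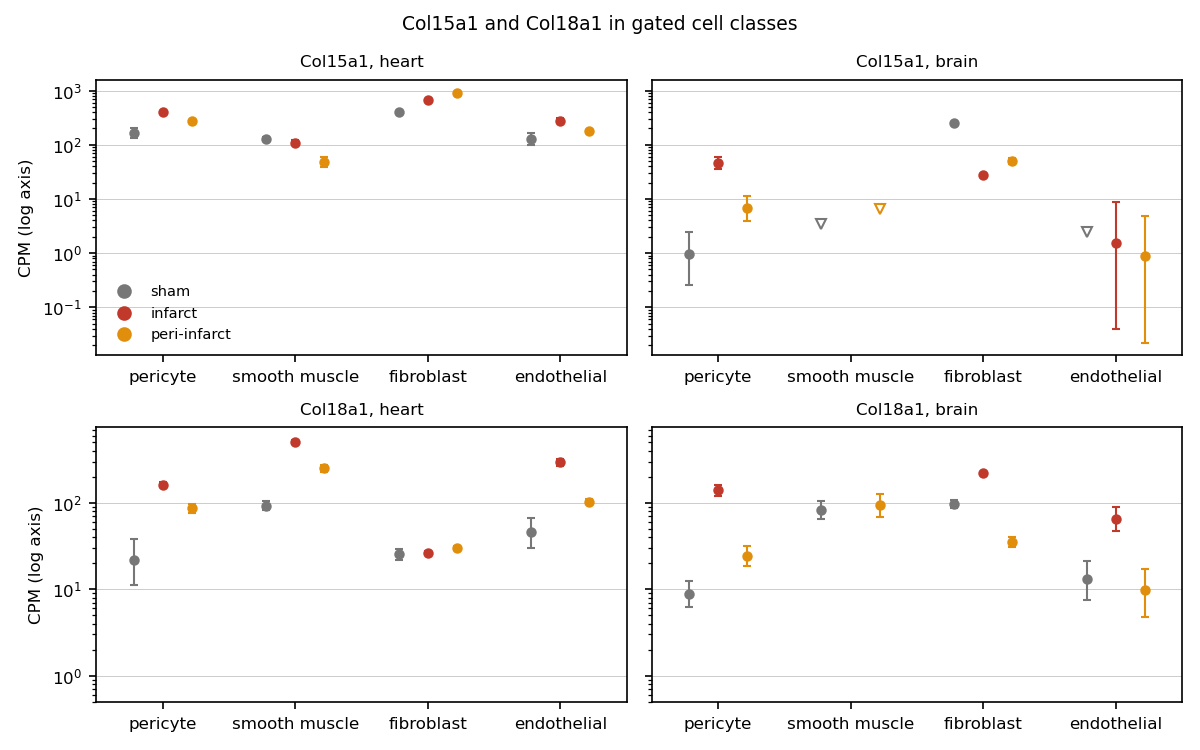
Levels of Col15a1 and Col18a1 in CPM (log axis) by cell class and library, with exact Poisson 95% intervals; open triangles mark the limit that 3 counts allow where no UMI was found. Brain pericytes go from 0.965 CPM of Col15a1 in sham to 46.3 in infarct, and Col18a1 is higher in infarct than in sham in pericytes of both organs.

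Col18a1, the source of endostatin, was the member furthest above sham in infarct pericytes, smooth muscle and endothelial cells of the heart. Heart pericytes held 21.8 CPM (12 UMIs) in the sham, 161 (816 UMIs) in the infarct and 87.0 (268 UMIs) in the peri-infarct library. Infarct was 7.41-fold (4.22 to 14.4) and peri-infarct 3.99-fold (2.25 to 7.83) above sham, whose level lay below the 27.3 CPM of mesothelial cells and cannot be told apart from free RNA. Without sham, infarct stood 1.86-fold (1.61 to 2.14) above peri-infarct. Heart smooth muscle was the highest class in each heart library at 92.8, 506 and 250.3 CPM, 5.46-fold (4.82 to 6.19) and 2.70-fold (2.34 to 3.11) above sham. The peri-infarct difference was a log2 ratio of 0.81 when cells of up to 20% mitochondrial UMIs were kept, beside 1.42. Heart endothelial cells held 45.7, 295 and 103 CPM, 6.45-fold (4.35 to 9.99) and 2.24-fold (1.52 to 3.45) above sham. The latter was 0.20 on the log2 scale with doublet calls kept, beside 1.15. Heart fibroblasts held 25.4, 26.5 and 30.2 CPM, with an infarct ratio of 1.04 (0.902 to 1.22). In heart infarct the smooth muscle level was thus 19.1-fold (17.7 to 20.6) that of fibroblasts, against 3.65-fold (3.05 to 4.38) in sham.

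Brain pericytes held 8.92 CPM of Col18a1 (37 UMIs) in the sham, 141 (182 UMIs) in the infarct and 24.4 (57 UMIs) in the peri-infarct library. Infarct was 15.8-fold (11.0 to 23.1) above sham and 5.76-fold (4.25 to 7.90) above peri-infarct. Peri-infarct was 2.74-fold (1.78 to 4.26) above sham, a log2 ratio of 1.36 that was 0.68 with thinned cells and 2.51 in cells with a Y-linked UMI and no Xist UMI. At 1000 UMIs per cell, 8.79% (6.09 to 12.2) of infarct pericytes held a UMI, 1.02% (0.556 to 1.70) of sham and 1.32% (0.702 to 2.24) of peri-infarct, with no UMI in 122 infarct leukocytes, which allows up to 2.46%. Unthinned shares were 18.3%, 1.86% and 2.44%. Brain fibroblasts held 96.9, 221 and 35.4 CPM, 2.28-fold (2.05 to 2.54) above sham in infarct and 2.74-fold (2.29 to 3.27) below it in peri-infarct. The infarct difference was under 2-fold in 5 of 18 alternatives, down to 0.47 on the log2 scale under a stricter gate, beside 1.18. Brain endothelial cells held 13.2 (16 UMIs), 65.7 (42 UMIs) and 9.68 (11 UMIs) CPM, 4.98-fold (2.74 to 9.48) above sham in infarct, and 0.61 on the log2 scale with thinned cells. Brain smooth muscle held 82.4 CPM in sham and 94.8 in peri-infarct. The 3' counts do not separate the transcripts that start from the different Col18a1 promoters.

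Counted over the members, the infarct libraries stood further from sham than their background in pericytes, and the peri-infarct cortex hardly did. A member was compared where its mean over both libraries was at least 10 CPM, and called where (CPM + 1) differed by 2-fold or more. A member under 10 CPM in 1 library could thus enter through the other, where it was higher. Of 6 members compared in heart pericytes, 4 were higher in infarct than in sham, where 7.63% of all genes compared were, and 1 was lower (7.56% of all genes), Col4a5, with the limit on its sham level given above. In heart peri-infarct pericytes 3 of 6 were higher than in sham (7.81%) and 1 lower (8.14%), again Col4a5 with the same limit. Between infarct and peri-infarct none of 5 was apart (0.619% higher and 0.369% lower). In brain pericytes 5 of 7 were higher in infarct than in sham (3.69%) and none lower (3.51%). Of these 5, Col15a1 and Col18a1 were under 10 CPM in sham and entered the comparison through the infarct library, and with a filter at 50 CPM the count was 3. In the same cells 5 of 7 were higher than in peri-infarct (2.96%) with none lower (1.93%). Of these, Col15a1 was under 10 CPM in peri-infarct and entered through the infarct library. The peri-infarct library had 1 of 6 higher than sham (0.54%), Col18a1, and none lower (0.686%). Col18a1 was under 10 CPM in sham here too and entered through the peri-infarct library. The median log2 ratio of the members was 1.64 in heart infarct pericytes and 1.34 in brain infarct pericytes, beside 0.07 and -0.09 over all genes compared. The heart comparisons with sham share 1 sham library, as do those of the brain.

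In the other heart classes, infarct against sham gave 3 of 7 members higher in smooth muscle (6.15%) and 1 lower (7.34%), 2 of 7 higher in fibroblasts (5.93%) and 1 lower (6.8%), and 4 of 5 higher in endothelial cells (7.26%) and 1 lower (8.11%). The lower member was Col4a4 in each of these 3 classes, which in smooth muscle and endothelial cells rests on 3 and 7 infarct UMIs. Peri-infarct against sham gave 1 of 7 higher (2.99%) and 2 lower (5.0%) in smooth muscle, 2 of 8 higher (2.54%) and none lower (3.78%) in fibroblasts, and 3 of 5 higher (6.95%) and 1 lower (8.26%) in endothelial cells. Between the injured heart libraries, 3 of 6 smooth muscle members were higher in infarct (1.99%) and none lower (1.82%). These were Col4a2, Col15a1 and Col18a1, by 2.01-fold to 2.29-fold, and they were under 2-fold in 6, 4 and 4 of 17 alternatives. No fibroblast member was higher (1.75%) and 2 of 8 were lower (1.62%), and 1 of 4 endothelial members was higher (0.936%) and none lower (0.591%). The 1 was Col18a1, at 2.87-fold (2.56 to 3.22).

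In the brain, fibroblasts differed in both directions. Of 6 fibroblast members, 3 were higher in infarct than in sham (9.14% of all genes) and 3 lower, where 29.1% of all genes were lower. The higher ones were Col4a1, Col4a2 and Col18a1, under 2-fold in 3, 4 and 5 of 18 alternatives. All 6 compared were lower in peri-infarct than in sham, where 4.43% of all genes were (0.881% higher), with a median log2 ratio of -1.47 beside -0.21 over all genes. Against peri-infarct 3 of 6 were higher in infarct (9.06%) and 1 lower (18.4%). Endothelial cells had 1 of 3 members higher in infarct than in sham (3.91%) and none lower (10.4%), none apart between peri-infarct and sham (1.22% higher and 2.86% lower), and all 3 higher in infarct than in peri-infarct (3.77%, with 5.62% lower). Of these, Col4a1 (log2 1.01) was under 2-fold in 7 of 17 alternatives, down to 0.48, and Col18a1 was under 10 CPM in peri-infarct. None of 5 was apart in smooth muscle of peri-infarct against sham (2.82% higher and 6.2% lower).

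**Figure D4:**
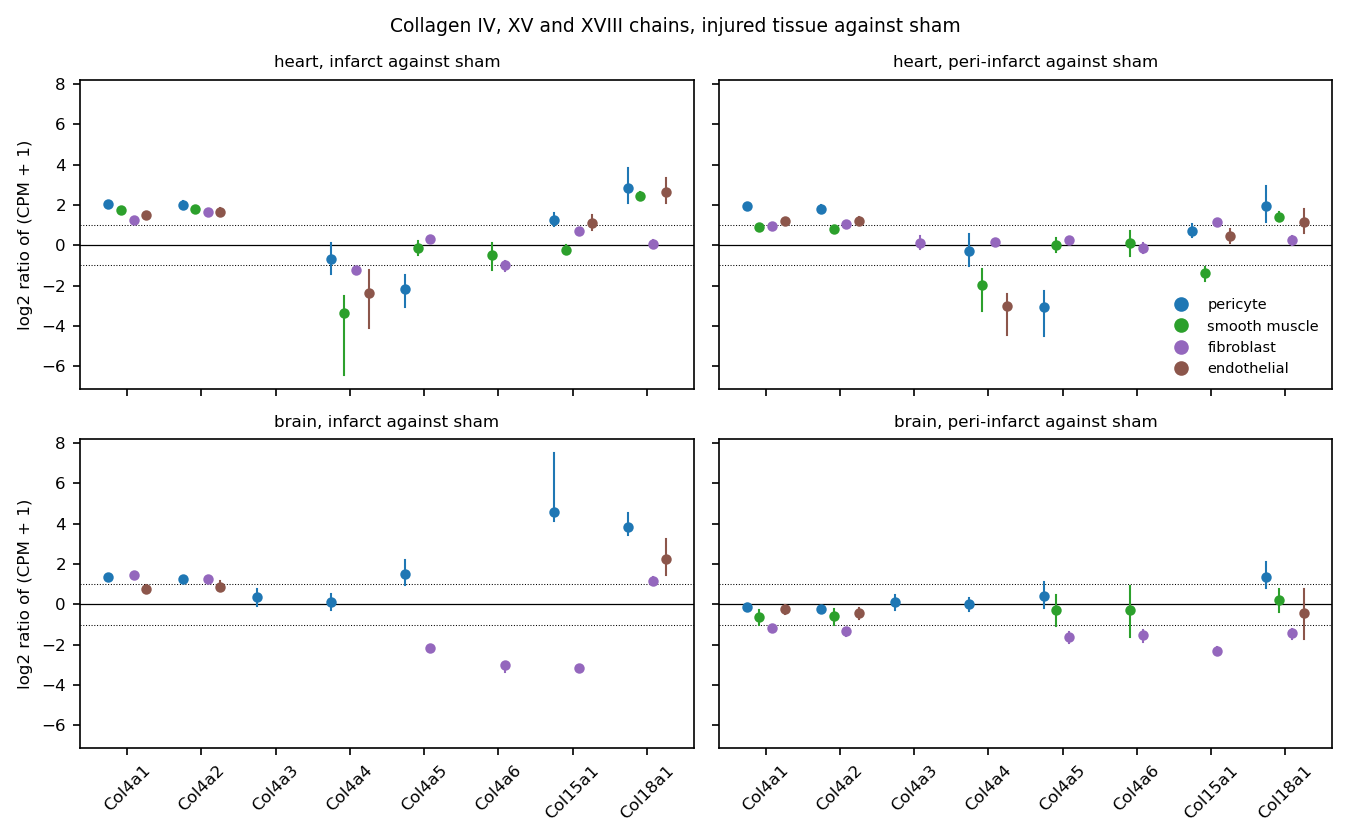
Log2 ratios of (CPM + 1) between libraries of an organ for each member compared, coloured by cell class, with lines for the 95% counting interval of the plain ratio and dotted lines at 2-fold. Pericyte points of Col4a1, Col4a2, Col15a1 and Col18a1 lie to the side of the infarct library in both organs, while the brain fibroblast points of the peri-infarct library all lie beyond 2-fold below sham.

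Brain fibroblast levels differed widely between clusters. The cells of an organ's 3 libraries were also clustered together. Among brain fibroblasts of sham and peri-infarct, 1 cluster, number 9, held the highest levels of the 6 members compared. Its leading genes include Aldh1a1, Col13a1, Itih5, Slc22a8 and Col15a1 itself. Cluster 9 held 36.2% of the gated sham fibroblasts (161 cells), 13.5% of the peri-infarct ones (78 cells) and fewer than 50 cells of infarct. Within it, Col4a1 was at 781 CPM in sham and 641 in peri-infarct (0.821-fold, 0.688 to 0.975), Col15a1 at 1168 and 1016 (0.870-fold, 0.756 to 0.998), Col18a1 at 432 and 405 (0.938-fold, 0.747 to 1.17), Col4a5 at 369 and 299.9 (0.812-fold, 0.625 to 1.04) and Col4a6 at 303 and 319 (1.05-fold, 0.810 to 1.36). No member was apart by 2-fold inside this cluster, although all 6 were over the whole class. In cluster 4, led by Cd74, sham and peri-infarct fibroblasts held 56.4 and 36.5 CPM of Col4a1, and in cluster 10, led by Penk, 84.9 and 89.9. The summed genes of arachnoid and meningeal cells were 1808 CPM in the sham, 350 in the infarct and 1474 in the peri-infarct library for fibroblasts, and those of macrophages 533, 50.4 and 1093. Which cells were taken from the cortex and its membranes cannot be told apart from a change in the cells.

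Infarct fibroblasts of the brain lay mostly in clusters with fewer than 50 sham fibroblasts. Cluster 19, led by Eln, held 48.7% of them and 515 CPM of Col4a1. Cluster 16, led by Saa3 and Serpine2, held 21.2% and had the highest levels in that library, 1092 CPM of Col4a1, 574 of Col18a1 and 91.9 of Col15a1. Cluster 18, led by histone and mitosis genes, held 15.6% and 530 CPM of Col4a1. In cluster 10, which holds over 50 of both sham and infarct, Col4a1 was level (84.9 and 84.2 CPM, 0.991-fold, 0.734 to 1.36) and Col18a1 was 4.77-fold higher in infarct, 36.8 CPM against 7.72 (5 UMIs).

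**Figure D5:**
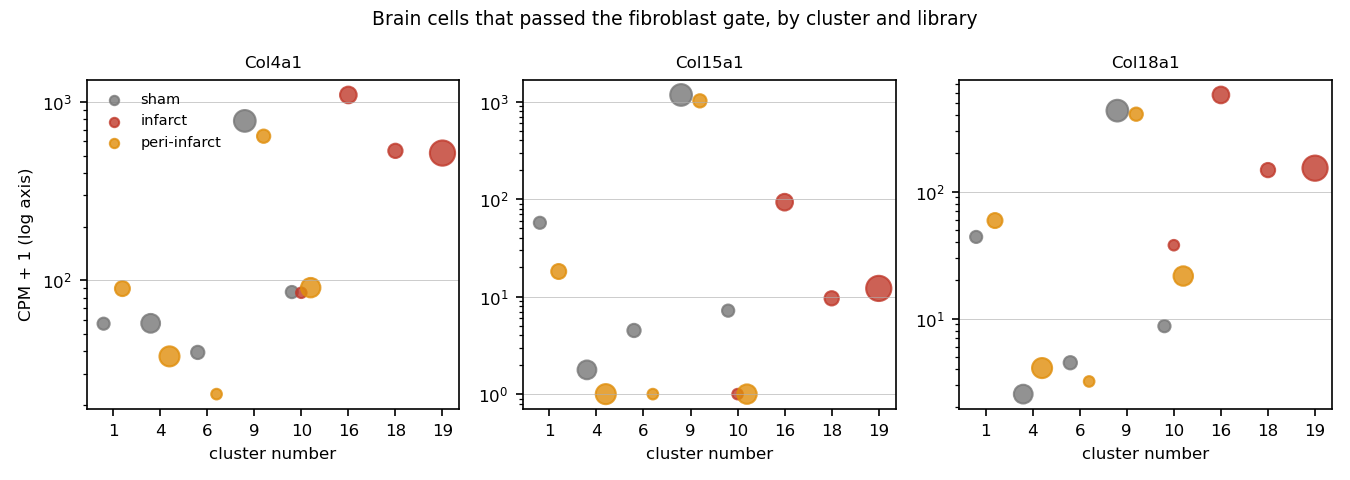
Levels of Col4a1, Col15a1 and Col18a1 in brain fibroblasts by cluster number and library (CPM + 1, log axis), with the area of a point giving the share of the library's gated fibroblasts. The sham and peri-infarct points of cluster 9 lie together (Col15a1 1168 and 1016 CPM), and the infarct library fills clusters 10, 16, 18 and 19.

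For brain pericytes the same split left the infarct difference of Col4a1, Col4a2, Col15a1 and Col18a1 in place in cluster 14, but not that of Col4a5. Cluster 14, led by Fos, Hist1h2ap and Jun, held 226 infarct pericytes (58.2%) and 98 sham pericytes (7.02%). Within it, Col4a1 was at 1504 CPM in infarct and 387 in sham, a 3.88-fold (3.23 to 4.70) difference, and Col4a2 at 790.3 and 167, 4.72-fold (3.58 to 6.35). Of Col18a1 there were 166 UMIs in infarct and none in sham, which puts infarct at least 19.3-fold higher when 3 counts over the group stand for none. Of Col15a1 there were 56 and none, at least 6.52-fold. All infarct pericytes together held 182 Col18a1 and 60 Col15a1 UMIs, so most came from this cluster. No other cluster held 50 infarct pericytes, and the rest were not compared with sham by cluster. The Col4a1 and Col4a2 levels of cluster 14 were above those of the whole infarct class, so the rest held less. Col4a5, over 2-fold higher in infarct over the whole class, was at 32.4 CPM in infarct and 21.7 in sham in this cluster, under 2-fold. Cluster 2, led by Ccl19, held 57 sham and 50 peri-infarct pericytes with 1146 and 1178 CPM of Col4a1 and 204 and 263 of Col18a1, levels near those of the infarct library. Its cells gave 23 of the 37 Col18a1 UMIs of sham pericytes and 23 of the 57 of peri-infarct. In heart cluster 13, infarct and peri-infarct pericytes held 2668 and 2587 CPM of Col4a1 (1.03-fold), 436 and 304 of Col15a1 and 165 and 104 of Col18a1.

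Genes that fold, crosslink, bind or cut type IV collagen were counted by the same rule, with the shares over all genes given above for each comparison as background. These were 7.63% higher and 7.56% lower in heart infarct pericytes and 3.69% and 3.51% in brain infarct pericytes. In heart infarct pericytes 5 of 12 folding and export genes compared were at least 2-fold above sham and none below. In brain infarct pericytes none of 12 was above and 1 was below. Among 4 crosslinking genes, 1 was higher and 1 lower in heart infarct pericytes, and 2 of 3 were higher in brain infarct pericytes. Proteases that cut these collagens or release their end fragments had 3 of 7 higher in heart infarct pericytes and 4 of 7 in brain infarct pericytes, with none lower in either. Basement membrane partners, such as laminins and nidogens, had 1 of 11 higher and 1 lower in heart and 1 of 10 higher in brain. Receptors had 2 of 7 higher in heart and none in brain.

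In heart pericytes the differences furthest from 0 among these genes were those of Fbln2, P4ha2, Ctsk, Loxl2, Mmp14 and Bmp1. Fbln2, a matrix glycoprotein, read 281 CPM in sham and 23.3 in infarct. Loxl2, which crosslinks type IV collagen, read 65.3 and 232 CPM, a 3.55-fold (2.55 to 5.10) difference. The membrane protease Mmp14 read 96.2 and 309 CPM, and Bmp1, which trims procollagens, 41.8 and 127. P4ha2, a subunit of the prolyl hydroxylase that stabilises collagen helices, and the protease Ctsk had 2 UMIs each in sham, against 24.5 and 19.8 CPM in infarct.

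In brain pericytes the furthest were Mmp9, Bmp1, Loxl2, Pxdn, Lamb1 and Mmp14. Mmp9, a protease that cuts type IV collagen, had no UMI in 1397 sham pericytes and 59 UMIs (45.6 CPM) in infarct, so that infarct was higher by at least 63.0-fold when 3 counts over the group stand for none. Leukocytes of brain sham held 73.6 CPM and those of infarct 2.55. Bmp1 read 18.6 and 88.8 CPM in sham and infarct, a 4.78-fold (3.55 to 6.47) difference. Loxl2 read 21.9 and 58.7 CPM, and Pxdn, which forms the sulfilimine crosslinks of type IV collagen, 37.9 and 90.4. The laminin chain Lamb1 read 109 and 255 CPM and Mmp14 56.7 and 128. In peri-infarct against sham pericytes of the brain, 1 of these listed genes passed 2-fold, the protease Adamts1, at 27.8 CPM against 95.5.

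In heart infarct fibroblasts 7 of 13 folding genes and 3 of 4 crosslinking genes were higher than in sham, where 5.93% of all genes were, and 1 crosslinking gene was lower (6.8%), with P4ha3 at 68.9 CPM against 0.638 (5 UMIs), Plod2, a lysyl hydroxylase, at 248 against 60.4, and Loxl1 at 987 against 284. In brain infarct fibroblasts 5 of 12 folding and 4 of 4 crosslinking genes were higher (9.14% of all genes), and 4 of 12 partners and 3 of 8 receptors were lower (29.1%). The higher genes included Plod2 at 189.8 CPM against 29.4 and the collagen chaperone Serpinh1 at 2259.8 against 500.3. The collagenase Mmp13 had 6541 UMIs (148 CPM) in brain infarct fibroblasts and none in sham, and the protease Mmp3 read 351 against 25.6 CPM. Integrin subunit Itga3 and laminin chain Lamc3 were lower, at 1.90 against 63.1 CPM and 14.9 against 118. In heart infarct endothelial cells, 4 of 12 partners were higher than in sham (7.26% of all genes) and 1 was lower (8.11%), the higher ones including Nid2 at 68.3 against 15.8 CPM and perlecan (Hspg2) at 554 against 218, and Pxdn read 163 against 36.9.

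Over the 23 class-by-library sums, the profile of Col4a2 was the closest of the members to that of Col4a1 (Pearson r of log2(CPM + 10) 0.980). Among 3431 other genes averaging 50 CPM or more, Hnrnpc (r 0.907), Eif3c (0.880), Map4k4 (0.866), Tpm4 (0.855) and Amotl1 (0.855) were most like Col4a1. Fbn1 (0.893), Emp1 (0.888), Mmp2 (0.875), Calr (0.871) and Calu (0.871) were most like Col15a1. Atp5o (0.764), Cnn2 (0.729), Mrpl18 (0.726), Blmh (0.723) and Tcp1 (0.714) were most like Col18a1. These sums share 6 libraries and their depths, and a likeness over them is a description. By Spearman correlation 3, 2 and 4 of each 5 were named again. Cell by cell, at 1000 UMIs, the correlation of Col4a1 with Col4a2 was 0.304 in 1045 heart infarct pericytes and 0.427 in 364 brain infarct pericytes, and 0.0912 and 0.187 with Col18a1, in counts too sparse for a finding.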

How the data were processed

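Cells were sequenced with a droplet kit that reads the 3' ends of transcripts. The deposited matrices hold raw UMI counts, 1 row per gene and 1 column per barcode called as a cell, written by Cell Ranger 3.0.2 per the file headers. The submitters' processing notes name the mm10 build and Seurat 3. The annotation and any doublet removal are not given in the sources used here.

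From these counts, cells with at least 500 genes and at most 10% mitochondrial UMIs were kept in each library. Doublets were called with an own score of simulated cell pairs, at 0.8% per 1000 barcodes, and left out (1.90% to 14.4% of the deposited barcodes). Each cell was assigned to the class whose markers, from 10 lists, it expressed well above all others. Smooth muscle cells also needed a Myh11 UMI, a requirement added after values were seen. UMIs were summed per class and library where at least 50 cells were present. Genes averaging 10 CPM or more over both libraries were compared and called at a 2-fold ratio of (CPM + 1). With 1 library per group no test was made. Poisson, conditional binomial and Clopper-Pearson 95% intervals cover counting error only. Free RNA was estimated from markers of fibroblasts in endothelial cells and the reverse, taking the lower of both. For clusters, cells of each organ were joined over 30 principal components of 2000 variable genes, with 15 neighbours and Leiden clustering at resolution 1.0. The named genes were the members, up to 6 genes of 5 fixed pathway lists (53 genes) per comparison by size of ratio, and 5 genes of like profile. The members and lists were chosen with earlier results of these data known. Planned were 19 alternatives, and 3 were added after the data were seen. Steps ran in Python 3.11.15, numpy 2.4.6, scipy 1.17.1, pandas 2.3.3, igraph 0.11.9, R 4.3.3 and edgeR 4.0.16 (TMM factors only), and were tested on simulated data. The tdTomato transcript was not analysed here.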

Additional observations from a re-analysis of the deposited data

Results flagged for a closer look

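Flagged were 13 combinations of a gene, a class and a contrast in which the heart libraries stood on one side and the brain libraries on the other. The list is not complete. In peri-infarct against sham, opposite sides were also seen for Col4a5 in pericytes (-3.06 in heart and 0.43 in brain). The same held for Col18a1 in endothelial cells (1.15 and -0.41) and Col4a1 in smooth muscle (0.89 and -0.64). The difference between the organs was not tested, since each group is 1 library, and the values below are log2 ratios of (CPM + 1). Sex makeup also differed between the heart and brain libraries, and Col4a5 is X-linked.

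Among pericytes 3 were flagged. Col4a5 in infarct against sham was at -2.17 in heart and 1.51 in brain, and the heart value sets 22 sham UMIs below the mesothelial level against 41 in infarct. In peri-infarct against sham, Col4a1 was at 1.95 in heart and -0.11 in brain, and Col4a2 at 1.79 and -0.21. Over brain cells with a Y-linked UMI and no Xist UMI the brain values were 0.21 and 0.20, on the same side as the heart.

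Among fibroblasts 8 were flagged. In infarct against sham, Col4a5 was at 0.34 in heart and -2.15 in brain, and Col15a1 at 0.72 and -3.16. In peri-infarct against sham, Col4a1 was at 0.96 and -1.17, Col4a2 at 1.04 and -1.34, Col4a5 at 0.26 and -1.61, Col15a1 at 1.18 and -2.29, and Col18a1 at 0.24 and -1.43. In infarct against peri-infarct, Col18a1 was at -0.18 in heart and 2.61 in brain. Among brain fibroblasts, cluster 9 held 36.2% of sham and 13.5% of peri-infarct cells.

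Among endothelial cells 2 were flagged, both in peri-infarct against sham. Col4a1 was at 1.21 in heart and -0.24 in brain, and Col4a2 at 1.20 and -0.43.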

How the results depend on the processing

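No paired analysis was possible because each group holds 1 library. Over 22 comparisons, 330 of 376 alternative counts of members at least 2-fold apart were within 1.5 times the reported count. Of 3008 alternative log2 ratios, 0 reversed the direction of a called member and 2461 were inside the counting interval. Ratios of members that were not called could not count as reversed, and some did change side. Col4a1 in brain pericytes of peri-infarct against sham, for example, went from -0.11 to 0.21. Members called in pericytes of both injured heart libraries against sham, and of brain infarct against sham, kept a 2-fold ratio under each alternative that gave a value. The filter at 50 CPM left some of them out of the comparison, and the brain infarct count was then lower, as given below. Over the alternatives the Col4a1 log2 ratio of pericytes against sham ran from 1.81 to 2.19 in heart infarct and from 1.13 to 1.49 in brain infarct. That of Col18a1 ran from 1.86 to 3.91 and from 2.99 to 4.27. Heart pericytes against sham had no value with classes from named clusters (14 sham cells) or with at least 1000 genes per cell (under 50 cells).

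The other 46 counts were these, and the cause was not tested. With cells thinned to 1000 UMIs before summing, counts were 1 in place of 2 for heart fibroblasts in peri-infarct against sham and in infarct against peri-infarct, 0 in place of 1 for heart endothelial cells (infarct against peri-infarct), brain pericytes (peri-infarct against sham) and brain endothelial cells (infarct against sham), 3 in place of 0 for brain smooth muscle, 3 in place of 6 for brain fibroblasts (infarct against sham) and 1 in place of 0 for brain endothelial cells (peri-infarct against sham). The mean over cells gave 1 in place of 0 for heart pericytes (infarct against peri-infarct), 1 in place of 2 for the same 2 heart fibroblast comparisons, 0 in place of 1 for brain pericytes (peri-infarct against sham), 3 in place of 6 for brain fibroblasts (infarct against sham) and 1 in place of 3 for brain endothelial cells (infarct against peri-infarct). A pseudocount of 10 CPM gave 1 in place of 3 for heart smooth muscle (infarct against peri-infarct), 1 in place of 2 for the same 2 heart fibroblast comparisons and 0 in place of 1 for brain pericytes (peri-infarct against sham). A stricter gate gave 1 in place of 3 for heart smooth muscle (infarct against peri-infarct), 1 in place of 2 for heart fibroblasts (peri-infarct against sham) and 3 in place of 6 for brain fibroblasts (infarct against sham). For heart smooth muscle in infarct against peri-infarct, named clusters, kept doublets, a looser gate and no Myh11 requirement also gave 1 in place of 3. For heart smooth muscle in peri-infarct against sham, at least 1000 genes, up to 20% mitochondrial UMIs and subtracted free RNA gave 1 in place of 3. For heart fibroblasts in infarct against peri-infarct, named clusters, the gate after thinning, a looser gate and TMM factors gave 1 in place of 2. Up to 20% mitochondrial UMIs gave 1 in place of 0 for heart pericytes (infarct against peri-infarct), and subtracted free RNA 5 in place of 3 for heart fibroblasts (infarct against sham). Named clusters gave 1 in place of 0 for brain endothelial cells (peri-infarct against sham), and TMM factors 2 in place of 1 (infarct against sham). A filter at 50 CPM gave 0 in place of 2 for heart fibroblasts (infarct against peri-infarct), 3 in place of 5 for brain pericytes in infarct against sham and against peri-infarct, and 0 in place of 1 for brain pericytes (peri-infarct against sham) and brain endothelial cells (infarct against sham). No filter gave 2 in place of 1 for heart endothelial cells (infarct against peri-infarct) and brain pericytes (peri-infarct against sham), 1 in place of 0 for brain smooth muscle and brain endothelial cells (peri-infarct against sham) and 4 in place of 1 for brain endothelial cells (infarct against sham).

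Depth limits the values of heart sham pericytes, with 12 UMIs of Col18a1 and 22 of Col4a5 in 453 cells. Animals per library are not given, so the spread between animals is not measured here.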

Other observations

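Heart fibroblast clusters differed in these genes as brain ones did. In cluster 8, led by Igfbp3 and Cytl1 and held by all 3 heart libraries (65 sham, 75 infarct and 1037 peri-infarct cells), Col4a1 was at 244 CPM (43 UMIs), 990.2 and 495 CPM in that order. Infarct was 4.05-fold (2.97 to 5.67) and peri-infarct 2.03-fold above sham there, and Col15a1 2.67-fold (2.09 to 3.45) and 1.88-fold above it. In cluster 3, led by Wif1 and Prg4 (602 sham and 535 peri-infarct cells), the Col4a1 level was lower in peri-infarct, 113 CPM against 188 (0.603-fold, 0.510 to 0.713), and Col15a1 was level at 189.9 and 179.6 CPM. Cluster 18, led by Wisp2 and Eln, held 50.7% of infarct fibroblasts and 7.86% of peri-infarct ones. Its Col15a1 level was 466 CPM in infarct and 886 in peri-infarct (0.527-fold, 0.509 to 0.545), while Col4a1 was level at 901 and 879. In cluster 20, led by Thbs4 and Scx, Col4a1 was at 1577 CPM in infarct and 1313 in peri-infarct, the highest of the 6 fibroblast clusters compared between those libraries.

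Among the other heart classes, endothelial cluster 10 held 317 CPM of Col18a1 in infarct and 97.2 in peri-infarct, 3.26-fold (2.86 to 3.71) apart, with Col4a1 within 1.10-fold. Gated smooth muscle cells in cluster 15 held 648 CPM of Col18a1 in infarct and 304 in peri-infarct, 2.13-fold (1.90 to 2.39) apart, and Col15a1 there rested on 28 and 31 UMIs.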
